A study of Mus musculus with 15 samples.

Results

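The receptors of the colony-stimulating factors and of IL-3 were followed in mouse bone marrow-derived macrophages (BMDMs) treated with type 2 cytokines and IL-6. The set was given by name: the M-CSF receptor Csf1r and its ligand Csf1, the α chains Csf2ra and Il3ra, the β chains Csf2rb and Csf2rb2, and the G-CSF receptor Csf3r. These 7 genes were all found among the 53465 genes of the deposited count matrix, and all 7 passed the filter on low counts that left 13938 genes for testing. Marrow cells had grown for 7 days in recombinant M-CSF at 20 ng/ml, the ligand of Csf1r, so every group, control included, carried that exposure. The control group received no further cytokine, and the other groups received IL-4 (10 ng/ml), IL-4+IL-6 (10 and 40 ng/ml), IL-13 or IL-6+IL-13 (each at 40 ng/ml) for 24 h. No group received IL-6 alone. According to the methods of the study, marrow for BMDMs came from mice aged 8 to 12 weeks and passed a density gradient for mononuclear cells, a step that removes most mature granulocytes, and no sort of the BMDMs before RNA-seq is described there, while the labels name no strain. Each group had 3 RNA-seq libraries, 15 in all. The supplement of the study speaks of biological replicates for its RNA-seq with IL-4 and IL-4+IL-6, and it describes no RNA-seq with IL-13. The labels do not say whether the libraries came from separate cultures or animals, so p-values measure the spread between these libraries.

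M-CSF (Csf1) acts through Csf1r, a receptor tyrosine kinase on which macrophages depend for survival and which also binds IL-34. GM-CSF and IL-3 act through a cytokine-specific α chain (Csf2ra or Il3ra) paired with a signaling β chain. The common β chain Csf2rb serves GM-CSF, IL-3 and IL-5, and mice carry in addition Csf2rb2, a β chain used by IL-3. G-CSF acts through Csf3r, a homodimeric receptor best known from neutrophils and their precursors, and the β chains and Csf3r signal mainly through JAK2 and the transcription factors STAT5 and STAT3.

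Summed counts per library were between 17001352 and 18918686, so depth was similar in all groups. The spread between replicates was not: the biological coefficient of variation was 4.49% in control, 4.54% in IL-4, 7.39% in IL-6+IL-13, 10.9% in IL-13 and 14.9% in IL-4+IL-6. Replicate 2 of IL-4+IL-6 and replicate 1 of IL-13 stood apart from the other replicates of their groups, and the calls of the 7 genes that changed without them are given with their values. All 7 macrophage markers were detected in every group, but their levels changed: relative to control, 1 rose and 4 fell with IL-4 (32.1% and 35.9% of all tested genes) and 3 rose and 2 fell with IL-13 (29.0% and 31.1%). With IL-6, 3 rose and 4 fell over IL-4 (20.7% and 18.7% of all genes), and 3 rose and 1 fell over IL-13 (12.1% and 13.5%). Adgre1 (F4/80) was at 844.2 ± 35.2 normalized CPM in control, 883.5 ± 23.6 in IL-4, 940.6 ± 51.9 in IL-13, 1288 ± 78.5 in IL-4+IL-6 and 1454 ± 5.82 in IL-6+IL-13 (SD, n = 3). Fcgr1, an Fc receptor, went from 100.7 ± 1.23 in IL-4 to 216.6 ± 22.2 with IL-6 and from 188.4 ± 12.7 in IL-13 to 478.7 ± 71.4 with IL-6, and the lysozyme gene Lyz2 from 9698 ± 317 to 6852 ± 1046.1 and from 12745.0 ± 1530.5 to 8692 ± 354 (SD, n = 3). The efferocytosis receptor Mertk went from 142.5 ± 12.2 normalized CPM in control to means of 8.272 to 17.95 in the treated groups, and Cd14 from 291.7 ± 5.3 to 101.4 ± 2.74 with IL-4 and 46.52 ± 4.63 with IL-4+IL-6 (SD, n = 3). The control libraries also held transcripts of other marrow cells. The summed level of 12 granulocyte and precursor markers was between 520.3 and 612.2 normalized CPM in control, against 25.31 to 26.68 in IL-4, 21.64 to 24.66 in IL-13, 11.69 to 12.25 in IL-4+IL-6 and 13.25 to 13.63 in IL-6+IL-13. Marker sums of basophils and mast cells (17.72 to 19.28 in control, at most 2.194 elsewhere) and of stromal cells (16.68 to 21.6 in control, at most 0.609 elsewhere) were higher in control too. The 7 dendritic cell markers summed to between 25.41 and 29.34 in control, to at most 1.185 in IL-4 and IL-13, to between 10.9 and 13.53 in IL-4+IL-6 and to between 2.495 and 2.948 in IL-6+IL-13. In bulk RNA of this kind, fewer cells of a type and less RNA per cell cannot be told apart, and for each change from control the part of these other cells was not tested unless a value below bears on it.

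Levels are given as normalized CPM (read counts scaled by library size and TMM factors), which compares 1 gene across libraries, and as FPKM where genes are compared with each other. A gene was called when its p from the quasi-likelihood test in edgeR, fitted to all 15 libraries and adjusted by the Benjamini-Hochberg method over all 13938 genes, was under 0.05. With IL-4, 3 of the 7 genes rose over control (Csf2rb, Csf2rb2, Il3ra) and 3 fell (Csf1r, Csf1, Csf3r), while among all tested genes 32.1% rose and 35.9% fell. With IL-13, 1 of the 7 rose (Il3ra) and 3 fell (Csf1r, Csf1, Csf3r), against 29.0% and 31.1% of all genes. Addition of IL-6 to IL-4 raised 1 gene (Csf3r) and lowered 3 (Csf1r, Csf2ra, Csf2rb2), against 20.7% and 18.7% of all genes, and addition of IL-6 to IL-13 raised 1 (Csf3r) and lowered 2 (Csf1r, Csf2ra), against 12.1% and 13.5%. Some of these counts lie below the share of all genes and some above it, and with 7 genes nothing particular to the set is read from them. The median log2 fold change of the 7 genes was 0.09 with IL-4, -0.12 with IL-13, -0.12 with IL-6 added to IL-4 and -0.18 with IL-6 added to IL-13, beside medians over all tested genes of -0.05, -0.02, 0.04 and 0.01. These comparisons share samples, control with both cytokines and each cytokine group with its IL-6 combination. With upper-quartile factors in place of TMM, the share of rises among all calls where IL-6 was added to IL-4 was 39% in place of 52.6%.

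**Figure D1:**
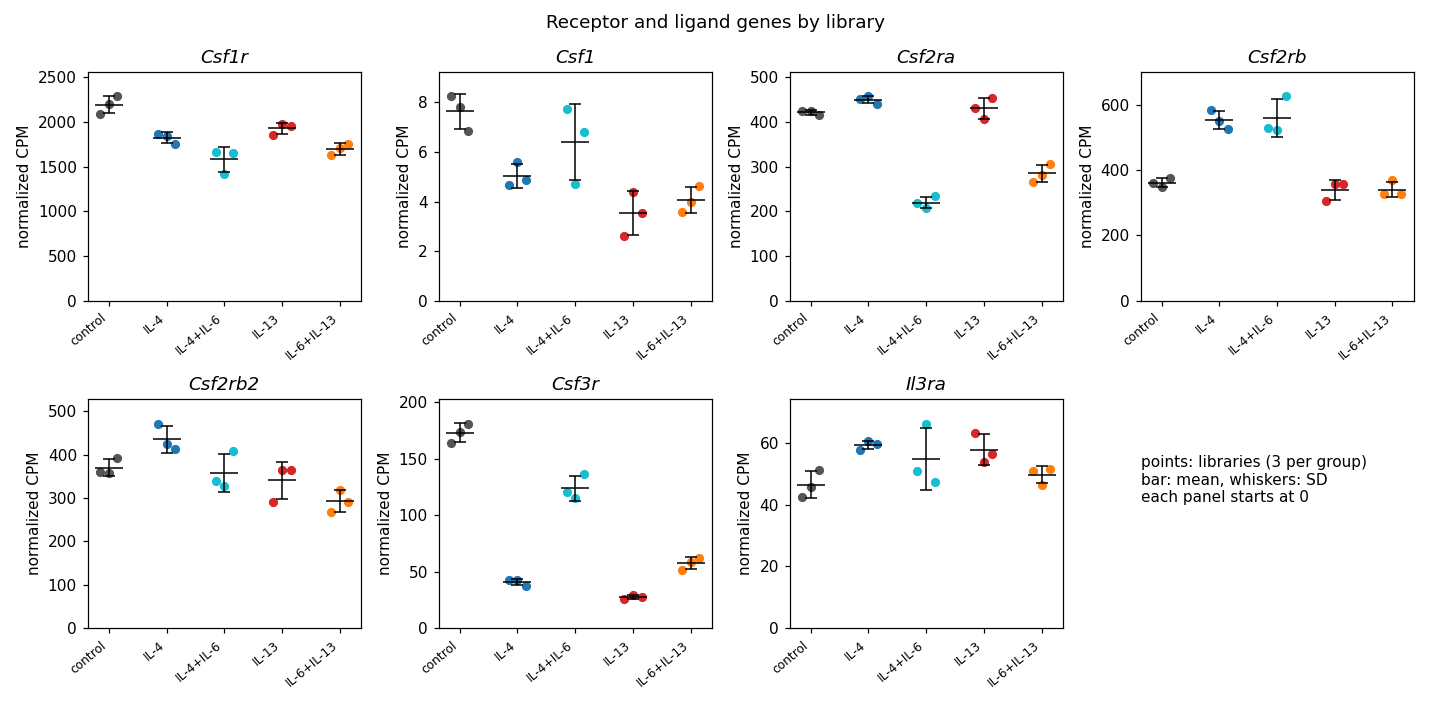
Normalized CPM (y axis, each panel from 0) of the 7 genes in the 15 libraries by group (x axis), with 1 point per library and the mean with SD. Csf3r was between 164.3 and 181.1 in control, at most 42.6 in IL-4 and IL-13, and between 115 and 136.4 in IL-4+IL-6, and Csf2ra was at most 306.1 in the 6 libraries with IL-6 and at least 407.6 in the 9 without it.

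Csf3r, the G-CSF receptor, had the largest ratio of highest to lowest group mean of the 7 genes, though not the largest change in every comparison. Its level was 164.3, 173.4 and 181.1 normalized CPM in the 3 control libraries, 42.6, 42.57 and 37.44 in IL-4, and 26.03, 29.17 and 27.92 in IL-13. In IL-4+IL-6 it was 120.6, 115 and 136.4, and in IL-6+IL-13 it was 51.42, 58.74 and 61.92. The 5 groups did not overlap anywhere in this order: control was highest, followed by IL-4+IL-6, IL-6+IL-13, IL-4 and IL-13. Csf3r thus fell with either type 2 cytokine and was higher where IL-6 was present, without reaching the control level.

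In edgeR (quasi-likelihood, Benjamini-Hochberg), Csf3r was 4.23-fold lower with IL-4 than in control (log2 fold change -2.08, SE 0.0876, adjusted p = 2.12e-12). It was 6.24-fold lower with IL-13 (log2 fold change -2.64, SE 0.0903, edgeR adjusted p = 3.35e-13). Granulocytes are the classical site of Csf3r expression, and the summed level of their markers was also highest in control, as given above. Ltf, Ngp and S100a9 were near 0 outside control and passed the filter on low counts through control alone. A count of falls among such markers was fixed in advance and is not read. Ltf (lactoferrin) counts were 1367 to 1641 in control and 0 in every IL-4 library, and S100a9 counts were 2729 to 3121 in control and at most 4 in any other library. How much of the fall of Csf3r from control went with these cells was not tested.

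Csf3r rose where IL-6 was added. With IL-6 on top of IL-4, Csf3r was 3.03-fold higher (log2 fold change 1.6, SE 0.087, edgeR adjusted p = 1.18e-10) and with IL-6 on top of IL-13 it was 2.07-fold higher (log2 fold change 1.05, SE 0.089, edgeR adjusted p = 7.64e-08). In edgeR, 0 of the 11 tested granulocyte markers rose in either comparison, 0 at an unadjusted p under 0.05 and 0 by DESeq2. Ltf, Ngp and S100a9 were near 0 in the groups compared and passed the filter on low counts through control alone. That count is therefore not read against the 20.7% and 12.1% of all tested genes that rose. Mmp8 was the 1 marker of the 11 that was called lower in each comparison, and it made up most of the marker sum in the treated groups. Its level in control, 22.62 ± 0.809 normalized CPM, was close to the 23.89 ± 1.05 of the IL-4 group and above the 10.31 ± 0.309 of IL-4+IL-6 (SD, n = 3), so it did not fall with IL-4 as the 10 other tested markers did, and the lower sum with IL-6 rested on it. Ltf, Ngp, Camp and Retnlg had a count of 0 in all 3 IL-4+IL-6 libraries, a group in which Csf3r counts were 1952 to 2368. Macrophage markers moved with IL-6 as well, in both directions, as given above. The source of the Csf3r rise among the cells was not tested.

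**Figure D2:**
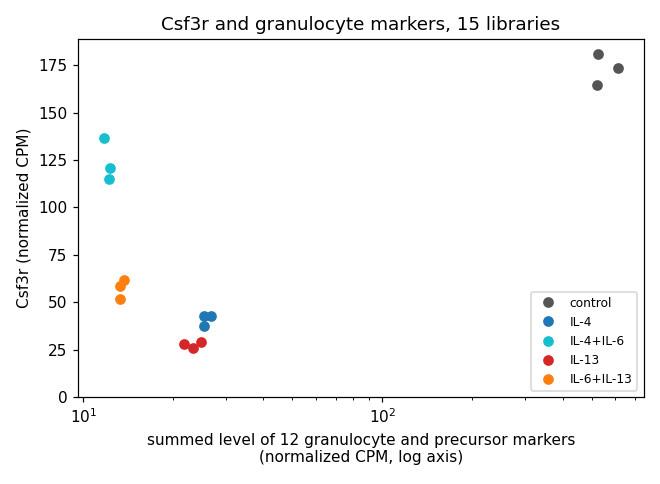
Csf3r level (y axis, normalized CPM) against the summed level of the 12 granulocyte and precursor markers (x axis, normalized CPM, log axis), 1 point per library. The control libraries lie at 520.3 to 612.2 on the marker axis, and the IL-4+IL-6 libraries combine the lowest marker sums, 11.69 to 12.25, with Csf3r levels of 115 to 136.4. Outside control the marker sum is mostly Mmp8.

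Among the ligands, Csf1 (M-CSF) was the one that passed the filter on low counts, at a low level. Its counts were 122 to 158 in control, 87 to 101 in IL-4, 49 to 78 in IL-13, 80 to 136 in IL-4+IL-6 and 62 to 83 in IL-6+IL-13. In normalized CPM the control libraries were at 8.233, 7.813 and 6.844, the IL-4 libraries at 4.656, 5.591 and 4.857, and the IL-13 libraries at 2.624, 4.392 and 3.555. The control libraries were above all IL-4 and IL-13 libraries. Csf1 was 1.52-fold lower with IL-4 (log2 fold change -0.6, SE 0.189, edgeR adjusted p = 0.00986) and 2.17-fold lower with IL-13 (log2 fold change -1.12, SE 0.197, edgeR adjusted p = 1.11e-04). The call for IL-4 was lost without IL-4 replicate 1 (edgeR adjusted p = 0.0543). Stromal cells make M-CSF, and their markers were higher in control, as given above, with Col1a1 at 9.052 ± 1.19 normalized CPM in control (SD, n = 3) and a count of 0 in every other library. Their part in the Csf1 difference was not tested.

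In IL-4+IL-6, Csf1 stood at 7.712, 4.714 and 6.796 normalized CPM, and in IL-6+IL-13 at 3.586, 3.96 and 4.617. Replicate 2 of IL-4+IL-6 lay within the IL-4 range and the other libraries of that group above it. The log2 fold change with IL-6 was 0.35 over IL-4 (95% CI -0.06 to 0.76) and 0.21 over IL-13 (95% CI -0.24 to 0.65), and neither was called. Both values turned on single libraries. The former was 0.51 and was called without IL-4+IL-6 replicate 2 (edgeR adjusted p = 0.0314), and was 0.17 without IL-4+IL-6 replicate 1 (edgeR adjusted p = 0.576). The latter was 0.38 without IL-13 replicate 2, 0.025 without IL-13 replicate 1 and 0.091 without IL-6+IL-13 replicate 3 (edgeR adjusted p = 0.278 to 0.95).

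The other ligands were at or near 0. Il3 had a count of 0 in all 15 libraries, Il5 had 1 count, Csf2 (GM-CSF) 2, Il34 3 and Csf3 (G-CSF) 5 over all libraries together, with at most 2 in any library. A count of 0 allows up to 3 counts, which is 0.159 to 0.176 CPM of the summed counts of these libraries (without TMM factors), for counting error only. Il5ra, the α chain of the IL-5 receptor, had 21 counts over the 3 control libraries, 2 in IL-4 and 0 in the other groups. Of the ligands of these receptors, transcripts above that limit were thus found in these cultures for Csf1 alone.

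Csf1r was the most abundant of the 7 genes per length in every group, with means of 306.5 to 469.1 FPKM. Its level was 2093, 2205 and 2286 normalized CPM in control, 1869, 1848 and 1757 in IL-4, and 1857, 1973 and 1958 in IL-13. With IL-6 it was 1666, 1421 and 1658 in IL-4+IL-6, and 1627, 1706 and 1759 in IL-6+IL-13. All 12 cytokine-treated libraries were below the 3 control libraries, while the treated groups overlapped their neighbors in the order IL-13, IL-4, IL-6+IL-13 and IL-4+IL-6. In edgeR (quasi-likelihood, Benjamini-Hochberg), Csf1r fell with IL-4 by 0.27 on the log2 scale (SE 0.0656, adjusted p = 0.00176) and with IL-13 by 0.19 (SE 0.0656, adjusted p = 0.0218). IL-6 added to IL-4 gave a further -0.21 (SE 0.0656, edgeR adjusted p = 0.0188), and IL-6 added to IL-13 gave -0.18 (SE 0.0656, edgeR adjusted p = 0.0477). The macrophage markers that changed in the same comparisons moved in both directions, as given above, and their part in the Csf1r differences was not tested.

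The decreases of Csf1r were small, and those with IL-13 stood close to the threshold. The call for IL-13 over control was lost without control replicate 2 or 3 and without IL-13 replicate 1 or 3 (edgeR adjusted p = 0.0535 to 0.168), and that for IL-6+IL-13 over IL-13 was lost without any 1 of IL-13 replicates 2 and 3 or of the 3 IL-6+IL-13 replicates (edgeR adjusted p = 0.0536 to 0.159). The call where IL-6 was added to IL-4 was lost without IL-4 replicate 1 (edgeR adjusted p = 0.0526). Over control, Csf1r was 1.39-fold lower in IL-4+IL-6 (log2 fold change -0.47, SE 0.0657, edgeR adjusted p = 5.55e-06) and 1.29-fold lower in IL-6+IL-13 (log2 fold change -0.37, SE 0.0657, edgeR adjusted p = 1.00e-04), and these calls held without each library in turn. Csf1r lies on chromosome 18 (chr18:61100598-61132149, plus strand, GRCm38) and overlaps the antisense gene Hmgxb3, whose counts were 434 to 755. As the strandedness of the counting is not given in the sources used here, reads of the shared stretch cannot be told apart, against Csf1r counts of 24106 to 40755.

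The GM-CSF receptor α chain Csf2ra was not called with IL-4 or IL-13 alone and fell where IL-6 was added. Its level was 424.8, 425.5 and 415.9 normalized CPM in control, 451.1, 457.5 and 441.6 in IL-4, and 431.2, 407.6 and 454.6 in IL-13. It was 219.2, 207.4 and 233.5 in IL-4+IL-6 and 267, 282.5 and 306.1 in IL-6+IL-13. The IL-4 libraries lay narrowly above the control libraries, the 6 libraries with IL-6 lay below the 9 without it, and the IL-4+IL-6 libraries below those of IL-6+IL-13. The log2 fold change over control was 0.09 with IL-4 (95% CI -0.04 to 0.23) and 0.03 with IL-13 (95% CI -0.11 to 0.17), and neither was called.

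With IL-6 added to IL-4, Csf2ra was 2.05-fold lower (log2 fold change -1.03, SE 0.0652, edgeR adjusted p = 8.88e-10), and with IL-6 added to IL-13 it was 1.51-fold lower (log2 fold change -0.6, SE 0.0646, edgeR adjusted p = 1.54e-06). Both calls held under all alternatives, with log2 fold changes of -1.12 to -1.01 and of -0.66 to -0.56. Csf2ra is also made by dendritic cells. Of the 6 tested dendritic cell markers, 1 (Cd209a) rose in each of these comparisons and 5 were not called (20.7% and 12.1% of all genes rose). The higher marker sum with IL-6 thus rested on Cd209a. Siglech, Flt3 and Ccr7 were near 0 in all groups compared, so nothing is read from their lack of a call. Cd209a was at 11.33 ± 1.04 normalized CPM in IL-4+IL-6 and 0.05457 ± 0.0945 in IL-4 (SD, n = 3), while Siglech had a count of 0 and Flt3 and Ccr7 at most 2 counts in every library with IL-6. The part of dendritic cells in the fall of Csf2ra, and that of the macrophage marker changes with IL-6 given above, was not tested.

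**Figure D3:**
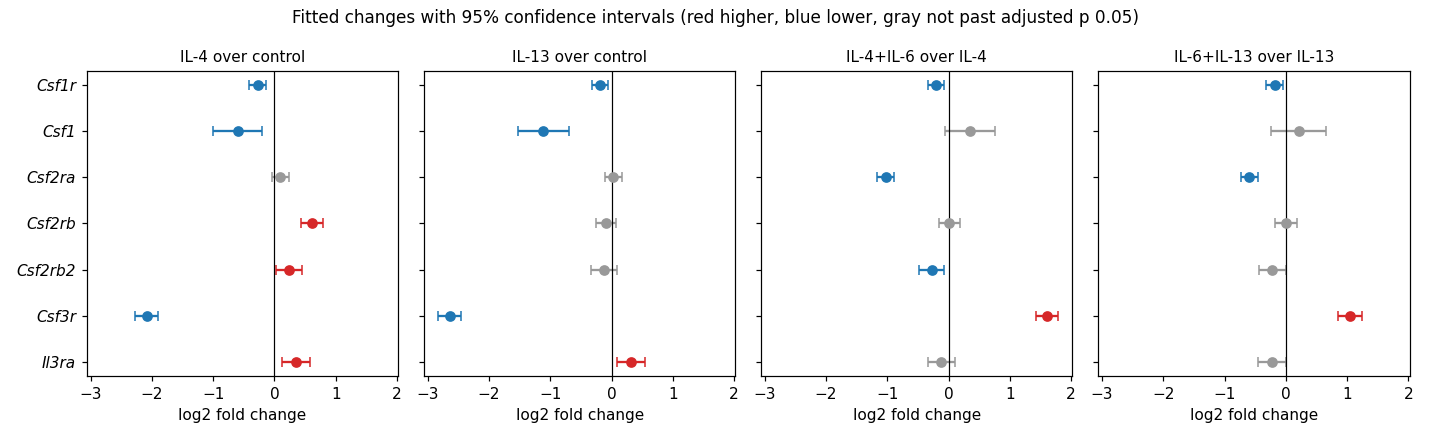
Fitted log2 fold changes (x axis) of the 7 genes (y axis) with 95% confidence intervals in 4 comparisons. Csf3r lies below -2 for both cytokines over control and above 1 where IL-6 was added, Csf2ra is lower where IL-6 was added (-1.03 and -0.6), and Csf2rb stands apart from 0 with IL-4 over control only (0.61).

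The β chains Csf2rb and Csf2rb2 lie side by side on chromosome 15 and are transcribed away from each other. Csf2rb occupies chr15:78325752-78353847 on the plus strand and Csf2rb2 chr15:78282507-78305721 on the minus strand of GRCm38, 20030 bases apart. The pair is highly similar: the longest coding sequences of GENCODE (2688 and 2634 bases) were identical at 95.2% of 2628 aligned bases, 18.4% of the 50-base windows of the Csf2rb transcript occurred in that of Csf2rb2 as well, and 6.96% of the 100-base windows did. Their counts are therefore uncertain to the extent that reads of shared stretches were assigned to either gene, which the sources used here do not describe. The coding stretch in which the pair differed most is shown first, with differing bases in capitals (13 of 60), and then the first 120 bases of the longest identical run (242 bases). The former lies in exon 5 of 15 of Csf2rb (chr15:78338893-78338952) and exon 4 of 14 of Csf2rb2 (chr15:78294379-78294438), and the latter in the last exon of each gene (chr15:78348577-78348696 in Csf2rb, chr15:78284752-78284871 in Csf2rb2). All are written 5′ to 3′ in the direction of the gene.
Csf2rb, differing stretch: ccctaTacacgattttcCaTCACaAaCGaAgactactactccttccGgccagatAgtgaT
Csf2rb2, differing stretch: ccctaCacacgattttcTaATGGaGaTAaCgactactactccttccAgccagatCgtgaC
Csf2rb and Csf2rb2, identical stretch: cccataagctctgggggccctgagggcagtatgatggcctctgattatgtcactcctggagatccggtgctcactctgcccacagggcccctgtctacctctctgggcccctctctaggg

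Csf2rb, the common β chain, rose with IL-4 and not with IL-13. Its level was 360.9, 348.2 and 376.7 normalized CPM in control, 583, 549 and 526.8 in IL-4, and 305.2, 357.7 and 357.4 in IL-13. It was 527.9, 521.9 and 625.7 in IL-4+IL-6 and 327.7, 368.7 and 325.8 in IL-6+IL-13. The 6 libraries with IL-4 were above all 9 others, which overlapped one another. In edgeR (quasi-likelihood, Benjamini-Hochberg), Csf2rb was 1.53-fold higher with IL-4 than in control (log2 fold change 0.61, SE 0.0828, adjusted p = 5.26e-06), and with IL-13 the log2 fold change was -0.09 (95% CI -0.26 to 0.08, adjusted p = 0.363). IL-13 over IL-4 gave -0.7 (SE 0.0829, edgeR adjusted p = 1.38e-05). Addition of IL-6 left the fitted value close to 0, at 0.01 over IL-4 (95% CI -0.16 to 0.19) and 0.0 over IL-13 (95% CI -0.17 to 0.18). The granulocyte, basophil and mast cell, stromal and dendritic cell marker sums were lower in IL-4 than in control, and their part in the Csf2rb difference was not tested.

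Csf2rb2, the IL-3 β chain, varied less and its calls were less stable. Its level was 359.9, 357.4 and 392.1 normalized CPM in control, 471.6, 423.5 and 412.2 in IL-4, and 291.4, 364.7 and 365.4 in IL-13. It was 338.7, 326.8 and 409.1 in IL-4+IL-6 and 268.2, 319.4 and 291.8 in IL-6+IL-13. The IL-4 libraries were above all others, and the other groups overlapped their neighbors. The rise with IL-4 was 1.18-fold (log2 fold change 0.24, SE 0.0999, edgeR adjusted p = 0.0449) and was not called without control replicate 1 or 2 or without IL-4 replicate 1 (edgeR adjusted p = 0.0964 to 0.109). IL-6 added to IL-4 lowered it (log2 fold change -0.28, SE 0.0999, edgeR adjusted p = 0.0327), and this was not called without IL-4 replicate 1 or without IL-4+IL-6 replicate 1 or 2 (edgeR adjusted p = 0.0728 to 0.118). With IL-6 added to IL-13 the value was -0.22 (SE 0.1, edgeR adjusted p = 0.135), and without IL-13 replicate 1 it was -0.32 and was called (edgeR adjusted p = 0.0217).

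The ratio of the β chains to each other and to the GM-CSF receptor α chain was taken within each library from the FPKM values, which are per length. Csf2rb over Csf2rb2 was 0.948 ± 0.0208 in control, 1.23 ± 0.0299 in IL-4, 1.51 ± 0.0328 in IL-4+IL-6, 0.97 ± 0.038 in IL-13 and 1.13 ± 0.0515 in IL-6+IL-13 (SD, n = 3). The IL-4 libraries (1.2 to 1.25) and IL-4+IL-6 libraries (1.48 to 1.55) were separate from each other and from all others. Csf2rb over Csf2ra was 0.333 ± 0.0172 in control, 0.477 ± 0.0215 in IL-4, 0.984 ± 0.053 in IL-4+IL-6, 0.307 ± 0.033 in IL-13 and 0.465 ± 0.0476 in IL-6+IL-13 (SD, n = 3). In IL-4+IL-6, where Csf2rb was high and Csf2ra low, the transcripts of the chains were near parity (0.935 to 1.04 per library), whereas in control Csf2ra FPKM exceeded Csf2rb FPKM in all 3 libraries (ratios 0.318 to 0.352). These are ratios of transcripts, and protein was not measured in these files.

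**Figure D4:**
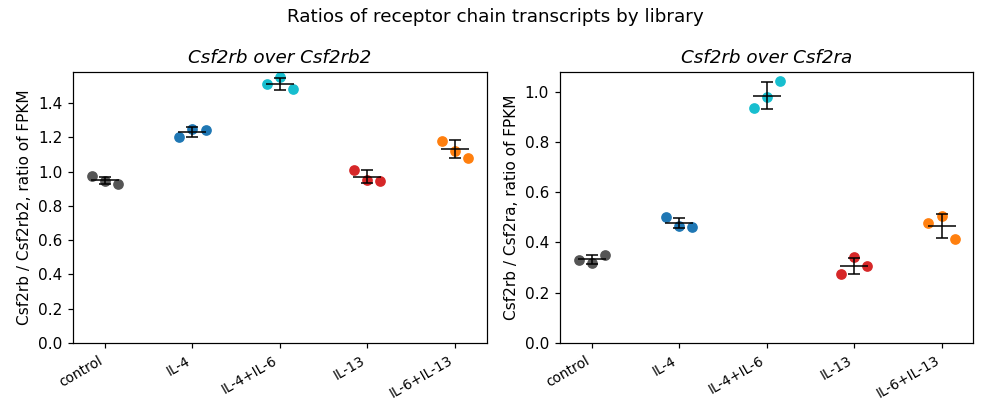
Ratio of Csf2rb to Csf2rb2 FPKM (left, y axis) and of Csf2rb to Csf2ra FPKM (right, y axis) in each library by group (x axis), with the mean and SD. Both ratios were highest in IL-4+IL-6 (means 1.51 and 0.984).

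Il3ra, the IL-3-specific α chain, moved little. Its level was 42.47, 45.72 and 51.16 normalized CPM in control, 57.85, 60.56 and 59.7 in IL-4, and 63.3, 53.89 and 56.36 in IL-13. It was 50.81, 66.23 and 47.23 in IL-4+IL-6 and 51.02, 46.49 and 51.46 in IL-6+IL-13. The control libraries were below those of IL-4 and of IL-13, and replicate 2 of IL-4+IL-6 was the highest of all 15. In edgeR (quasi-likelihood, Benjamini-Hochberg), Il3ra was 1.28-fold higher with IL-4 (log2 fold change 0.35, SE 0.108, adjusted p = 0.00793) and 1.25-fold higher with IL-13 (log2 fold change 0.32, SE 0.108, adjusted p = 0.0179), and the latter was not called without control replicate 1 (adjusted p = 0.0748). With IL-6 added to IL-4 the log2 fold change was -0.12 (SE 0.107, edgeR adjusted p = 0.422), and without IL-4+IL-6 replicate 2 it was -0.29 and was called (edgeR adjusted p = 0.0125). With IL-6 added to IL-13 it was -0.22 (SE 0.108, edgeR adjusted p = 0.156). Basophils and mast cells, which carry the IL-3 receptor, had marker sums that were higher in control, as given above, and the part of these cells in the Il3ra difference was not tested. Il3ra (chr14:14346275-14356011, plus strand, GRCm38) overlaps the antisense gene Gm48860, whose counts were 1 to 13 per library against 815 to 1182 for Il3ra.

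With both cytokines together, the genes stood relative to control as follows. In IL-4+IL-6, 1 of the 7 was higher (Csf2rb, 1.54-fold) and 3 were lower (Csf1r, Csf2ra, Csf3r), while 35.4% of all tested genes were higher and 37.5% lower. In IL-6+IL-13, 0 of the 7 were higher and 5 were lower (Csf1r, Csf1, Csf2ra, Csf2rb2, Csf3r), against 31.9% and 32.1% of all genes; 0 were higher at an unadjusted p under 0.05 in edgeR and 0 by DESeq2. The medians of the 7 log2 fold changes were -0.25 and -0.37, and those of all tested genes -0.05 and -0.01. Csf3r remained 1.39-fold below control in IL-4+IL-6 (log2 fold change -0.48, SE 0.0829, edgeR adjusted p = 6.03e-05) and 3.01-fold below it in IL-6+IL-13 (log2 fold change -1.59, SE 0.0857, edgeR adjusted p = 4.45e-11). Csf2ra was 1.92-fold and 1.48-fold below control. The granulocyte marker sums were lower than in control in both groups, as given above, and the part of these cells in the remaining Csf3r difference was not tested. Il3ra in IL-4+IL-6 was just outside the threshold (log2 fold change 0.24, edgeR adjusted p = 0.0581) and was called without control replicate 3 or without IL-4+IL-6 replicate 1 or 3 (edgeR adjusted p = 0.0111 to 0.033). The call of Csf2rb2 in IL-6+IL-13 was lost without IL-6+IL-13 replicate 1 (edgeR adjusted p = 0.0721).

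Compared directly, IL-13 and IL-4 differed for 3 of the 7 genes, against 12.8% of all tested genes in either direction. That share depended on single libraries: it was 20.4% without IL-13 replicate 1, 8.03% and 7.62% without IL-13 replicates 2 and 3, and 8.16% and 7.88% without IL-4 replicates 2 and 3. Csf2rb, Csf2rb2 and Csf3r were lower with IL-13, Csf3r by 1.48-fold (log2 fold change -0.56, SE 0.0896, edgeR adjusted p = 3.30e-04). The call of Csf2rb2 (log2 fold change -0.36, edgeR adjusted p = 0.026) was lost without IL-4 replicate 1 or 2 or without IL-13 replicate 1 (edgeR adjusted p = 0.056 to 0.123). The doses differed (10 ng/ml of IL-4 and 40 ng/ml of IL-13), so the values stand side by side for these doses only. In the presence of IL-6 the counterpart comparison called 5 of the 7, against 31.3% of all tested genes: Csf2ra was 1.3-fold higher in IL-6+IL-13 than in IL-4+IL-6, and Csf1, Csf2rb, Csf2rb2 and Csf3r were lower, Csf3r by 2.16-fold (log2 fold change -1.11, SE 0.0853, edgeR adjusted p = 2.98e-08). Of these, Csf1 and Csf2rb2 lost their call without single libraries of either group: Csf1 without IL-4+IL-6 replicate 1 or IL-6+IL-13 replicate 1 or 2 (edgeR adjusted p = 0.0576 to 0.101), and Csf2rb2 without replicate 1 or 3 of either group (edgeR adjusted p = 0.0516 to 0.178). Without replicate 1 of IL-4+IL-6 or of IL-6+IL-13, 3 genes were called in place of 5, while 25.9% and 26.1% of all tested genes were called.

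Whether IL-6 acted with a different size on IL-4 and on IL-13 was tested as an interaction. It was called for 2 of the 7 genes, 1 in each direction, against 7.64% of all tested genes in either direction. Csf3r rose less with IL-6 on IL-13 than on IL-4 (difference of log2 fold changes -0.55, SE 0.123, edgeR adjusted p = 0.00864), and Csf2ra fell less on IL-13 than on IL-4 (difference 0.44, SE 0.0912, edgeR adjusted p = 0.00522). Both calls held under all 16 alternatives. For Csf2rb the difference was -0.01 (95% CI -0.26 to 0.23), for Csf1r 0.02 (95% CI -0.17 to 0.22) and for Il3ra -0.1 (95% CI -0.43 to 0.22), and for Csf1 and Csf2rb2 it was not called either. Among all calls of the interaction, 57.8% were positive, and 68.3% with upper-quartile factors.

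On the per-length scale Csf1r and Csf2ra had the highest means of the 7 genes in every group. Csf1r had a mean of 469.1 FPKM in control, rank 64 of 26080 genes, followed by Csf2ra at 238.3 FPKM (rank 158), Csf2rb2 at 83.73 FPKM (rank 517), Csf2rb at 79.33 FPKM (rank 557), Csf3r at 50.03 FPKM (rank 949), Il3ra at 16.34 FPKM (rank 3056) and Csf1 at 1.508 FPKM (rank 10394). In IL-4, Csf2rb (117.4 FPKM) stood above Csf2rb2 (95.53 FPKM) and Il3ra (20.23 FPKM) above Csf3r (11.45 FPKM). In IL-4+IL-6, Csf2ra (112.5 FPKM) and Csf2rb (111 FPKM) were level within their spread, and Csf3r (32.52 FPKM) was again above Il3ra (17.33 FPKM).

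Related receptors, of other blood cell growth factors and of the receptor tyrosine kinase class to which Csf1r belongs, were low and highest in control. Of 7 such genes (among them Il5ra, Kit, Flt3, Epor and the platelet-derived growth factor receptors Pdgfra and Pdgfrb of mesenchymal cells), 5 were tested. Members near 0 outside control, such as Flt3, passed the filter on low counts through control alone. A count of falls from control among them was therefore fixed in advance and is not read. Kit, the stem cell factor receptor, was at 12.18 ± 1.04 normalized CPM in control, 3.753 ± 0.554 in IL-4, 1.197 ± 0.342 in IL-4+IL-6, 6.872 ± 2.17 in IL-13 and 2.477 ± 0.0325 in IL-6+IL-13 (SD, n = 3). Kit fell with IL-6 in both settings, with log2 fold changes of -1.65 and -1.47. Of the 5 tested genes it was the 1 that edgeR called in each comparison, where 18.7% and 13.5% of all tested genes fell. DESeq2 called 2 of the 5 lower with IL-6 added to IL-4 and 1 with IL-6 added to IL-13 (19.4% and 14.1% of all genes). With 5 genes nothing particular to them is read from these counts. Flt3, the receptor of dendritic cell precursors, had 96 to 149 counts in the control libraries and at most 4 in any other.

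Of 19 genes of receptor-proximal signaling, 1 rose and 15 fell with IL-4, beside 32.1% and 35.9% of all tested genes, and 1 rose and 14 fell with IL-13, beside 29.0% and 31.1%. The gene that rose was the Src family kinase Fyn, from 32.91 ± 2.05 normalized CPM in control to 225.5 ± 1.37 in IL-4 and 126.2 ± 4.86 in IL-13 (SD, n = 3). Its relatives Src and Fgr fell, with log2 fold changes of -2.44 and -1.57 in IL-4. In IL-4+IL-6 relative to IL-4, 6 rose and 6 fell, beside 20.7% and 18.7%. Among those that rose were Stat3, from 68.21 ± 2.36 to 224.4 ± 27.3 normalized CPM, and Jak2, the kinase bound by the β chains, from 65.02 ± 1.72 to 207.4 ± 15.2 (SD, n = 3). In IL-6+IL-13 relative to IL-13, 6 rose and 2 fell, beside 12.1% and 13.5%, Stat3 again rose (to 259.9 ± 9.59 normalized CPM), and the genes with a called interaction included Jak2 (-1.11 on the log2 scale).

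Of 12 inhibitors and shedding factors, 5 rose and 5 fell with IL-4 (32.1% and 35.9% of all tested genes), and 5 rose and 6 fell with IL-13 (29.0% and 31.1%). Socs1, an inhibitor of JAK kinases, rose from 1.016 ± 0.108 normalized CPM in control to 36.68 ± 4.47 in IL-4 and 10.31 ± 1.6 in IL-13 (SD, n = 3). Dok2, an adaptor that dampens tyrosine kinase signaling, rose from 36.79 ± 5.01 to 403.8 ± 9.63 and 317.5 ± 19.9. Where IL-6 joined IL-4, 6 rose and 4 fell (all genes 20.7% and 18.7%), and with IL-6 added to IL-13, 4 rose and 3 fell (all genes 12.1% and 13.5%). Socs3, which binds and inhibits the G-CSF and IL-6 receptors, rose from 1.691 ± 0.492 normalized CPM to 128.7 ± 12.5 over IL-4 and from 1.272 ± 0.339 to 106.9 ± 2.35 over IL-13 (SD, n = 3). The receptor Csf3r and this inhibitor of its signaling were thus both higher where IL-6 was added.

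Of 6 known STAT5 targets, 4 rose and 2 fell with IL-4, and 3 rose and 3 fell with IL-13, against the same shares of all genes (32.1% and 35.9%, 29.0% and 31.1%). Cish rose from 0.3305 ± 0.171 normalized CPM in control to 4.703 ± 0.349 in IL-4 and 1.13 ± 0.289 in IL-13, and Ccnd1 (cyclin D1) from 17.38 ± 1.19 to 281.9 ± 18.3 and 355.5 ± 40.3 (SD, n = 3). Upon addition of IL-6 to IL-4, 4 rose and 1 fell (all genes 20.7% and 18.7%), those that rose including the cytokine Osm (4.736 ± 0.227 to 51.06 ± 4.54 normalized CPM) and the kinase Pim1 (21.99 ± 1.09 to 71.11 ± 4.07), and with IL-6 added to IL-13, 3 rose (Osm, Pim1 and Socs2, with 12.1% of all genes) and edgeR did not call the remaining 3. Osm, Pim1 and Socs2 are also targets of STAT3 or STAT6, so the list is not specific to these receptors.

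Of 11 transcription factors known to act on the Csf1r and Csf2r genes, 4 rose and 5 fell with IL-4, and 4 rose and 4 fell with IL-13, counts near the shares of all genes (32.1% and 35.9%, 29.0% and 31.1%). Ets2 rose from 22.14 ± 0.994 normalized CPM in control to 62.05 ± 1.26 and 78.85 ± 4.24, and Cebpe, a granulocyte factor, fell from 4.361 ± 1.2 to 0.3408 ± 0.454 and 0.4981 ± 0.324 (SD, n = 3). With IL-6 added to IL-4, 3 rose and 3 fell (all genes 20.7% and 18.7%), and with IL-6 added to IL-13, 3 rose and 1 fell (all genes 12.1% and 13.5%). Maf, a macrophage factor, rose from 123.3 ± 1.02 to 565.5 ± 33.2 normalized CPM over IL-4 and from 268 ± 24.7 to 402.3 ± 25.6 over IL-13 (SD, n = 3). Maf rose less on IL-13 than on IL-4 (interaction -1.61, SE 0.106, edgeR adjusted p = 1.43e-07).

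The genes whose pattern over the 15 libraries was most like that of each receptor gene were found by Pearson correlation of log2 CPM among 12048 genes with a mean of at least 1 CPM, as a description. The points are libraries of 5 groups, so the values mainly reflect group means. Csf3r was closest to Pafah2 (r = 0.9813), Arid5b (r = 0.9763) and Stau1 (r = 0.9719), and Csf2ra to Itgb2 (r = 0.9881), AU020206 (r = 0.9871) and Myo1f (r = 0.9828). Itgb2, the β2 integrin chain, was at 1253 ± 19.6 normalized CPM in control, 1554 ± 36.5 in IL-4, 491.8 ± 18.4 in IL-4+IL-6, 1494 ± 32.4 in IL-13 and 724.2 ± 37.9 in IL-6+IL-13 (SD, n = 3), low in the groups with IL-6 as was Csf2ra. Csf2rb was closest to the NF-kB subunit gene Nfkb1 (r = 0.956), which was at 144 ± 1.34 in control, 185.8 ± 2.86 in IL-4 and 211.4 ± 18.2 normalized CPM in IL-4+IL-6 (SD, n = 3). Csf1r was closest to Pcnx (r = 0.9781), Csf1 to Irs2 (r = 0.9313), Csf2rb2 to Hk2 (r = 0.9006) and Il3ra to Akr1b3 (r = 0.9314). Within the set, the highest value was between Csf1 and Csf3r (r = 0.833) and the next between Csf1r and Csf2ra (r = 0.775), while the neighbors Csf2rb and Csf2rb2, which may share reads, had r = 0.693.

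Promoter sequences were available from RefSeq (GRCm38.p6) for 5 of the 7 genes, each from 250 bases before to 50 bases after the start of the gene. They were searched on both strands for TTC and GAA with 4 bases between them (the spacing preferred by STAT6), the same with 3 bases between them (STAT3 and STAT5), GAGGAAGT (PU.1), TTGCNNAA (C/EBP) and TGANTCA (AP-1), which occur in 6.95%, 8.3%, 3.2%, 10.8% and 7.81% of 32851 promoter windows of that length. Shown are the windows of the genes that moved most with IL-6, Csf3r (chr4:126024409-126024708, plus strand) and Csf2ra (chr19:61228369-61228668, minus strand), and that of the β chain Csf2rb2 (chr15:78305672-78305971, minus strand), written 5′ to 3′ in the direction of the gene with matches in capitals.
Csf3r: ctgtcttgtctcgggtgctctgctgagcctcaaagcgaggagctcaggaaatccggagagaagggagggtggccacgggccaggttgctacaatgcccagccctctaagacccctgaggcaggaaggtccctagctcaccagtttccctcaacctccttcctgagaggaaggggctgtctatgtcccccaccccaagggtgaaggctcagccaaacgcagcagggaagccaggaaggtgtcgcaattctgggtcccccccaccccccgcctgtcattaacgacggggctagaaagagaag
Csf2ra: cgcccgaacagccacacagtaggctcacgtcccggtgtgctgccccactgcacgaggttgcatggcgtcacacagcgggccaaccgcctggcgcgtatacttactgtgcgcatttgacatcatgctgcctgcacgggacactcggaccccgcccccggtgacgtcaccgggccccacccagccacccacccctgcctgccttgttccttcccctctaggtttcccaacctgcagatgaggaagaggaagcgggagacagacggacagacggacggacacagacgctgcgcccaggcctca
Csf2rb2: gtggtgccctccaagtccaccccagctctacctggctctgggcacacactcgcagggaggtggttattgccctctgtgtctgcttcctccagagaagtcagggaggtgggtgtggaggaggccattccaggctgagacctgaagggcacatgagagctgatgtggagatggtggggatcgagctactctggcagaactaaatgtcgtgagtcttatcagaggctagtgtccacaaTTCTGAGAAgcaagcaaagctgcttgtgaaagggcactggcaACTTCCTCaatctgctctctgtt

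The Csf2rb2 window held a STAT3- and STAT5-type match that began 15 bases before the start of the gene and a PU.1-type match, on the other strand, that began 27 bases after it. The Csf3r and Csf2ra windows held none of the 5 motifs, nor did that of Csf1, and the Il3ra window held 1 C/EBP-type match. A match says only that these letters are present, and their absence says only that they are not in this window.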

How the data were processed

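RNA was sequenced from 15 libraries of mouse BMDMs, 3 in each of 5 groups. The authors deposited a matrix of raw read counts for 53465 Ensembl genes, without normalization, and FPKM values for 26080 of them, which equal the deposited counts divided by a gene length and by the library total. The submitters' processing notes name CASAVA, Bowtie2 2.2.3, HISAT2 2.1.0, TopHat2, DESeq2 and the build GRCm38, while their roles, the counting tool and its strand setting are not given in the sources used here. Symbols, coordinates and overlaps came from GENCODE vM21 (GRCm38), matching 53274 identifiers.

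Counts were analyzed in edgeR 4.0.16 (R 4.3.3): filterByExpr with a minimum count of 10, TMM factors, one model of the 5 groups without covariates, the quasi-likelihood F-test and Benjamini-Hochberg adjustment over 13938 genes, with a call at an adjusted p under 0.05. The script was tested on simulated data. Alternatives were DESeq2 1.42.0, upper-quartile factors, no filter, a replicate block, fits of 9 libraries, and omission of each library. Marker sums and ratios were taken per library. Figures and sequence comparisons used Python 3.11.15, matplotlib 3.10.9 and Biopython 1.88. The genes, gene lists and tests were chosen with earlier results of these data known. Besides the 7 genes, the text names their other ligands and Il5ra, from each list up to 3 called genes per comparison with the largest change and a mean of at least 1 CPM, and for each gene up to 3 with the most similar pattern; marker genes, Il5ra and the lists' low members are named with levels. A count of 0 was read as up to 3 counts. Depth (17001352 to 18918686 counts per library) limits precision mainly for Csf1, with 49 to 158 counts. A few members of the gene lists are counted but not reported here by name.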

Additional observations from a re-analysis of the deposited data

Results flagged for a closer look

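The change with IL-6 differed between IL-4 and IL-13 for 2 of the 7 genes by a test of the difference itself (the interaction in edgeR's quasi-likelihood test, Benjamini-Hochberg adjusted). For Csf2ra the difference was 0.44 on the log2 scale (SE 0.0912, adjusted p = 0.00522): the level went from 450.1 ± 7.98 to 220 ± 13.1 normalized CPM over IL-4 and from 431.1 ± 23.5 to 285.2 ± 19.7 over IL-13 (SD, n = 3). For Csf3r it was -0.55 (SE 0.123, edgeR adjusted p = 0.00864), with the level going from 40.87 ± 2.97 to 124 ± 11.1 normalized CPM over IL-4 and from 27.71 ± 1.58 to 57.36 ± 5.38 over IL-13 (SD, n = 3). Both genes moved in the same direction in all 6 libraries with IL-6 relative to their groups without it. The doses of IL-4 and IL-13 differed, so cytokine and dose cannot be told apart.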

How the results depend on the processing

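The direction and call of Csf3r in all 9 comparisons, of Csf2ra wherever IL-6 was present, and of Csf2rb with IL-4 over control held under every alternative run. Among the alternative counts of called genes, 99 stayed within 1.5 times the value reported and 3 did not. Leaving out 1 library, the count with IL-6 added to IL-4 was between 2 and 5, and that for IL-6+IL-13 over IL-4+IL-6 between 3 and 5. The share of all tested genes called moved as well in these fits, between 31.9% and 40% and between 23.2% and 35.4%. Among the alternative log2 fold changes of single genes, 644 kept direction and call, 32 lost and 7 gained a call, and 31 changed sign, all of them of genes not called. No pairing of libraries by replicate number was seen: same-numbered libraries correlated in their deviations from group means with r between -0.276 and 0.163 over 30 pairs, and 2 of 15 libraries were closest to their own number. With 3 libraries per group, some of which stood apart, this check cannot exclude a pairing. With the replicate block, Csf1r for IL-6+IL-13 over IL-13 was -0.19 and no longer called (edgeR adjusted p = 0.0659), and no other call of the 7 genes changed. Without the filter on low counts, Csf1r was not called for IL-13 over control (-0.13, edgeR adjusted p = 0.147) or for IL-6+IL-13 over IL-13 (-0.17, edgeR adjusted p = 0.0805), while Il3ra was called for IL-4+IL-6 over control (0.29, edgeR adjusted p = 0.00779). The cause was not tested. Without that filter 25254 genes were tested, and the shares of all genes called, read beside the counts above, fell to between 4.92% and 21.5%, since more genes of low count entered.

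Sign changes were as follows, on the log2 scale. With IL-6 added to IL-4, Csf2rb was -0.073 with upper-quartile factors, -0.011 without the filter, -0.024 in the fit of 9 libraries and -0.092 to 0.047 leaving out 1 library. Csf2rb for IL-6+IL-13 over IL-13 was -0.034 with upper-quartile factors, -0.001 with DESeq2 and -0.077 to 0.033 leaving out 1 library. Csf2rb2 for IL-4+IL-6 over control was 0.006 without the filter. The interaction of Csf2rb was 0.039 with upper-quartile factors and 0.03 without the filter. Leaving out 1 library gave ranges of -0.12 to 0.017 (Csf2rb) and -0.16 to 0.016 (Csf2rb2) for IL-13 over control, of -0.16 to 0.044 for Csf2rb2 in IL-4+IL-6 over control, of -0.11 to 0.015 for Il3ra in IL-13 over IL-4, and of -0.22 to 0.017 for Il3ra in IL-6+IL-13 over IL-4+IL-6. For the interaction the ranges were -0.048 to 0.073 (Csf1r), -0.32 to 0.043 (Csf1), -0.07 to 0.09 (Csf2rb), -0.02 to 0.19 (Csf2rb2) and -0.19 to 0.057 (Il3ra). Taken from counts in place of FPKM, Csf2rb over Csf2ra was 0.858 in control and 2.54 in IL-4+IL-6, since counts are not per length.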
